A study of Homo sapiens with 6 samples.

Results

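The vector control cells of this study were described on their own, from the 3 culture dishes labelled U251 that carry the empty vector. These are 3 of the 6 dishes of the series, and no contrast with the other dishes was made. Of 57773 genes counted, 13843 (24.0%) were expressed. A gene was called expressed at 1 CPM or more in each of the 3 dishes, where CPM is a gene's counts scaled to 1000000 counts of the dish. The rule used no difference between groups, so the values below are a description of levels, ranks and spread. U251 is an established human glioblastoma line. The cells had been stably infected with a lentivirus carrying the vector alone and were at passage 5 to 10. They grew in DMEM with 10% fetal bovine serum in 100-mm dishes, and RNA was taken 12 h after passage. The labels name 1 vector line and do not say whether it is a clone or a pool. Because the 3 dishes share that line, the spread given here (SD, n = 3 dishes throughout) is between dishes and not between independent transductions. Cells without a virus were not analysed here.

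Glioblastoma is a tumour of the glial lineage. Its cells often keep genes of astrocytes and of neural stem cells, and lines grown on plastic with serum usually lose part of the glial programme and carry a mesenchymal one, with collagens, fibronectin and integrins. Several loci are commonly altered in this tumour: CDKN2A encodes the cell cycle inhibitors INK4A and ARF, EGFR and PDGFRA encode growth factor receptors, and MGMT encodes a DNA repair enzyme that is often switched off by methylation of its promoter.

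Total counts were 22270509, 20952894 and 18797948 in dishes 1 to 3. At these depths 3 counts correspond to 0.135, 0.143 and 0.160 CPM. In the summed 62021351 counts a gene with 0 counts has an upper limit of 0.0484 CPM (3 counts, counting error only). Protein-coding genes held 97.7% of the counts, and 12496 of 19263 of them were expressed (64.9%). Mitochondrially encoded genes took 2.63, 2.84 and 2.97% of the counts. All 27 broadly expressed reference genes listed were expressed. No pair of dishes was the same library deposited again: chi-square over its degrees of freedom was 11.3 for dishes 1 and 2, 6.94 for dishes 1 and 3, and 5.78 for dishes 2 and 3, where counting noise alone gives about 1.

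The label was checked against marker genes and against a locus for which U251 is known. The intermediate filament VIM (384 ± 18.3 CPM), the neural stem cell filament NES (73.4 ± 6.81 CPM) and the stem cell factor SOX2 (54.9 ± 7.36 CPM) were expressed in each dish. The markers were mixed: GFAP was low, and AQP4, PROM1 and SOX1 were not expressed, as given below. VIM is also a gene of the mesenchymal list. CDKN2A, which catalogues of cell lines give, as background, as deleted in U251, was also expressed. It had 5221, 4906 and 4337 counts, or 234, 234 and 231 CPM in dishes 1 to 3. The dishes lay close together, with a highest to lowest ratio of 1.02, and 92.1% of its exon bases are free of other genes' exons. Its neighbours MTAP, a methionine salvage enzyme, and CDKN2B, the related inhibitor INK4B, stood at 46.5, 45.6 and 49.7 CPM and at 6.60, 6.16 and 6.65 CPM. The data therefore go against the label at this locus. A further check of the label, whose values are not reported here, went against it too. The cells are called the Vector dishes here, with no other name, and their identity was not tested further.

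Promoter sequences of 6 genes are shown because they carry the contrast between levels described below. GAPDH, CDKN2A and LIN28B stand for expressed genes, and MGMT and NDN for genes with many CpG dinucleotides and almost no counts. ALB stands for a gene of another tissue with few CpG that had counts without being expressed. Each is the 250 bases before the gene's start in RefSeq (GRCh38.p14), written from 5′ to 3′ on the gene's strand, with each CpG in capitals. Each window lies before a single start, so the CDKN2A window does not stand for both INK4A and ARF. The 6 genes were chosen after their values were seen.
GAPDH (chr12:6535014-6535263, plus strand): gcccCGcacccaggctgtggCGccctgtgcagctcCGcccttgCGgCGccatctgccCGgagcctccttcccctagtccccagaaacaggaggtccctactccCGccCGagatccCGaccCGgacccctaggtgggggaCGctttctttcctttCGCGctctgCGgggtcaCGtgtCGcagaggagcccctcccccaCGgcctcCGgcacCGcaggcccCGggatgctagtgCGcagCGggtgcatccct
CDKN2A (chr9:21995325-21995574, minus strand): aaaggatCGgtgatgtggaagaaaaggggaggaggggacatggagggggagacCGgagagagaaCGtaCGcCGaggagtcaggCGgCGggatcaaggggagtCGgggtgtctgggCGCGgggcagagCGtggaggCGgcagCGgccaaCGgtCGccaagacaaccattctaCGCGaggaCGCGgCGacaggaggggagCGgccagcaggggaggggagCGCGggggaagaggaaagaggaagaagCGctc
LIN28B (chr6:104940715-104940964, plus strand): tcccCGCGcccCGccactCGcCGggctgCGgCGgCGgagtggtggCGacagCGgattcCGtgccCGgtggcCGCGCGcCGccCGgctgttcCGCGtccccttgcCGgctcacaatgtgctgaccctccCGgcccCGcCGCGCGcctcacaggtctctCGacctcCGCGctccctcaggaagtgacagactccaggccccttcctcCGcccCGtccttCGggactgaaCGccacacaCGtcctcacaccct
MGMT (chr10:129466991-129467240, plus strand): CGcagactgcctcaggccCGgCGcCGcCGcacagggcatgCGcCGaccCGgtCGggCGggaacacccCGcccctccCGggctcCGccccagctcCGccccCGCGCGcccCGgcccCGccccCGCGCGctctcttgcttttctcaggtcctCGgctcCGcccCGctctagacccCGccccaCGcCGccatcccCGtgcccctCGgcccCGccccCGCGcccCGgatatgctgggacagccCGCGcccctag
NDN (chr15:23687306-23687555, minus strand): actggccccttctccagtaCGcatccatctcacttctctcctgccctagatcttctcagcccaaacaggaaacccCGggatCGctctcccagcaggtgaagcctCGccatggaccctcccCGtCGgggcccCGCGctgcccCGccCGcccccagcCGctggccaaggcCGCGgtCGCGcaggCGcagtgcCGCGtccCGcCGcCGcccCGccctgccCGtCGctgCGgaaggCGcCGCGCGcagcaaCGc
ALB (chr4:73404037-73404286, plus strand): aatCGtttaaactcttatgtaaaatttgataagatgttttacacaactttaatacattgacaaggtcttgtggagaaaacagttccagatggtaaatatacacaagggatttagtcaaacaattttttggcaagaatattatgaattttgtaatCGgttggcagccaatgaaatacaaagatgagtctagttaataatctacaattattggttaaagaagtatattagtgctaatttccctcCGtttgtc
These windows held 22, 24, 33, 36, 30 and 3 CpG in that order. The GC content of the MGMT window was 80.4% and that of the GAPDH window 71.2%. GAPDH, the glycolytic enzyme, had 3182 ± 239 CPM, and LIN28B, an RNA-binding protein that blocks let-7 maturation and is a gene of early development, had 91.2, 107 and 102 CPM. MGMT had 1 count over the 3 dishes, NDN had 0 and ALB had 4. Among these 6 genes the window with the most CpG belonged to MGMT, which had almost no counts. DNA methylation was not measured.

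The most abundant transcripts were those of translation, glycolysis, the cytoskeleton, protein folding and the mitochondrial genome. EEF1A1, the elongation factor that brings aminoacyl-tRNA to the ribosome, took the largest share of reads, with 8884, 9780.0 and 9202 CPM. MT-CO1, a mitochondrially encoded subunit of cytochrome c oxidase, came next with 8319.6, 9152 and 9481 CPM. ENO1, the glycolytic enzyme enolase, had 5084, 4679 and 4564 CPM. The dish order differed among these genes: dish 1 was the highest for ENO1 and the lowest for EEF1A1 and MT-CO1, and no dish was the highest for all of them. PKM (pyruvate kinase), ACTB and ACTG1 (the cytoplasmic actins), HSP90AA1 and HSP90AB1 (chaperones), EEF2, NPM1, FLNA, HSPA8, GAPDH, MT-CO2 and MT-CO3 were also among the 20 highest by CPM. The remaining 5 were the ribosomal protein genes RPS2, RPL8, RPLP0, RPL4 and RPSA. The 10 most abundant genes of each dish took 5.00, 5.13 and 4.98% of its counts, and the 100 most abundant took between 18.8 and 19.4%. Between 995 and 1035 genes held 50% of the counts of a dish. No gene took as much as 1% of the counts.

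**Figure D1:**
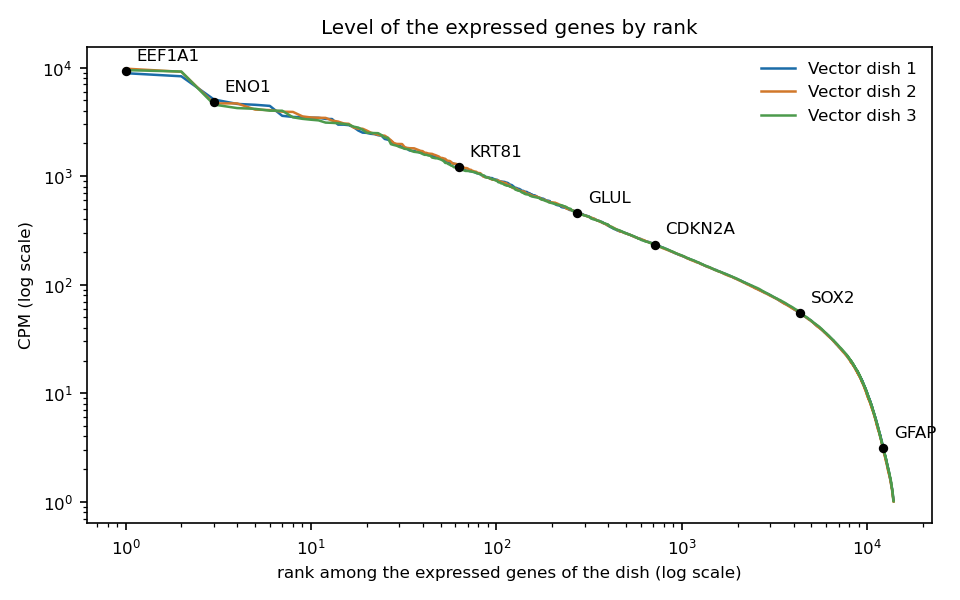
CPM of the expressed genes of each Vector dish (y axis, log scale) against their rank in that dish (x axis, log scale); lines are the 3 dishes and black points are the mean CPM of 7 named genes. The 3 lines nearly coincide from EEF1A1 at the top to genes near 1 CPM, and GFAP lies near the lower end.

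To compare genes with one another, CPM was divided by the length of the gene's merged exons. On this scale, over nuclear protein-coding genes, 7 of the first 20 were ribosomal protein genes, among them RPS2, RPL8, RPS12, RPLP0, RPS18 and RPL29. RPS2 led with 1862 ± 116 CPM per kb, followed by RPL8 with 1608 ± 83.6 CPM per kb and EEF1A1 with 1562 ± 76.4 CPM per kb. TMSB10, thymosin beta-10, which binds actin monomers, ranked 171 by CPM and 4 per kb, with 1265 ± 160.0 CPM per kb. FTL, the ferritin light chain, and LGALS1, the secreted lectin galectin-1, were at 770.2 and 684 CPM per kb, ranks 17 and 20. YBX1, a cold-shock domain protein that binds mRNA, had 1798, 1807 and 1787 CPM, the narrowest spread of these 20 genes, with a ratio of 1.01. Merged exons count every annotated isoform, and with the length of the longest transcript 15 of the 20 genes stayed among the first 20.

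Beyond housekeeping genes, a hair-type keratin and an S100 protein were among the first 35 genes per kb. KRT81, a keratin of hair and of some epithelial tumours, had 1301, 1294 and 1044 CPM, or 629 ± 75.9 CPM per kb, rank 29. Dish 3 was the lowest. KRT86, a near-identical neighbour, had 3.19 ± 0.358 CPM, and reads shared by such copies cannot be assigned with certainty. S100A2, a calcium-binding protein of epithelia, ranked 31 with 1000.4, 836 and 748 CPM, highest in dish 1. LDHB, the heart-type lactate dehydrogenase, ranked 33 at 545 CPM per kb, against 167 for LDHA, the muscle type.

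Glial and neural stem cell genes were expressed unevenly. Of 18 astrocyte genes 13 were expressed, against 64.9% of all protein-coding genes. GLUL, the glutamine synthetase that detoxifies glutamate in astrocytes, had 442, 459 and 465 CPM, with dishes within a ratio of 1.05. GJA1, the gap junction protein connexin-43, had 134 CPM on average, and SOX9, a factor of glial fate, had 68.4, 45.7 and 50.6 CPM. By contrast GFAP, the filament protein that defines astrocytes, had 83, 61 and 51 counts, or 3.73, 2.91 and 2.71 CPM. By mean CPM it ranked 12189 of all 57773 genes counted, of which 13843 were expressed. S100B, AQP4 (the astrocyte water channel), ALDH1L1 and SLC1A2 (a glutamate transporter) were not expressed, with 53, 18, 12 and 30 counts over the dishes. GFAP overlaps a gene on the other strand, and the library does not keep strand.

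Of 24 neural stem and progenitor genes 20 were expressed (83.3%), against 64.9% of all protein-coding genes. SOX4 (147 ± 23.6 CPM), MSI2 (93.7 ± 9.17 CPM) and MSI1 (55.6 ± 4.09 CPM), the last 2 being RNA-binding Musashi proteins, were expressed beside NES and SOX2. PAX6, a patterning factor of the forebrain, had 34.3, 33.8 and 35.9 CPM, and POU3F2, a neural POU factor, had 23.0, 22.6 and 26.2 CPM. The dishes differed by ratios of 1.06 for PAX6 and 1.16 for POU3F2. PROM1, which encodes CD133, a surface protein used to sort glioma stem cells, had 2 counts, and SOX1, a factor of neural progenitors, had 0. OLIG2, a factor of the oligodendrocyte lineage, had 8.44, 8.35 and 8.56 CPM.

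Differentiated neural genes were expressed in smaller shares, against 64.9% of all protein-coding genes. Of 16 oligodendrocyte lineage genes 6 were expressed (37.5%), among them CNP (117 CPM), a myelin-associated enzyme that other cells also make. The myelin protein genes MOG and MAG had 0 and 3 counts. Of 22 neuronal genes 11 were expressed (50%). NEFM, a neurofilament subunit, had 65.9, 80.3 and 78.0 CPM, and ENO2, neuron-specific enolase, had 91.9, 72.9 and 84.7 CPM. DLX2, a homeobox factor of inhibitory neurons, had 38.9, 37.1 and 44.3 CPM. RBFOX3, the source of the NeuN antigen, had 38 counts in all and DCX, the migrating neuron protein doublecortin, had 6. TUBB3, the neuronal beta-tubulin, had 1.30, 1.67 and 1.22 CPM. Only 64.2% of its exon bases are free of other genes' exons, so its low value is uncertain.

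Markers of leukocytes, muscle, vessels and red blood cells were mostly low, with exceptions in the endothelial and pericyte list. Over all protein-coding genes the share expressed was 64.9%. Of 18 microglia and leukocyte genes 3 were expressed, among them CSF1R and CD4 at 1.56 CPM and 1.32 CPM. The whole list summed to 8.61 CPM. CD3E had 2 counts, TYROBP 6 and MS4A1 0. CD68 also had 0 counts, but 14.2% of its exon bases are private to it, so this 0 is uncertain. None of the 12 muscle genes was expressed. The endothelial and pericyte list had 7 of 15 expressed at a summed 75.2 CPM, of which NOTCH3 gave 35.5 CPM and the potassium channel gene KCNJ8 17.3 CPM, and CLDN5 and ERG had 7 and 7 counts. HBA1, HBA2, HBG1 and HBD had 0 counts, and the erythropoietin receptor EPOR was the single erythroid gene expressed, of 11.

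Mesenchymal genes formed the most complete of the lineage lists, with 19 of 20 expressed, against 64.9% of all protein-coding genes. The median was 68.1 CPM over all 20. The lists were chosen with earlier results of these data known, so this completeness is not independent of them. COL1A1, a chain of type I collagen, had 966, 637 and 858 CPM. COL6A1, a chain of the microfibril collagen VI, had 909.9, 552 and 716 CPM, and FN1, fibronectin, had 801, 376 and 552 CPM. In each of these 3 genes dish 1 was the highest and dish 2 the lowest. Per kb, COL6A1 stood at 136, SPARC, a collagen-binding matrix protein, at 121 and VIM at 74.4. The low end of the list held DCN, decorin (1.62, 0.668 and 0.904 CPM), the one gene that was not expressed, and LUM, lumican (2.02, 1.29 and 1.17 CPM), both proteoglycans of fibroblasts. ACTA2, smooth muscle actin, had 3.63 CPM. All 20 genes of the mesenchymal glioma subtype were expressed, led per kb by LGALS1, S100A6 (273 CPM per kb) and the annexin ANXA2 (227 CPM per kb). CHI3L1, a further gene of that list, had 2.65, 1.91 and 1.60 CPM. Of 14 proneural genes 10 were expressed (71.4%), near the 64.9% of all protein-coding genes.

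Of the transcription factors of the mesenchymal list 26 of 31 were expressed (83.9%), against 64.9% of all protein-coding genes. JUN, a subunit of AP-1, had 535, 475 and 542 CPM, and FOXC1, a forkhead factor of mesenchyme, had 248, 195 and 241 CPM. TWIST1, ZEB1, ZEB2 and SNAI2, which repress epithelial genes, had 29.3 CPM, 26.6 CPM, 30.4 CPM and 18.4 CPM. SNAI1 was lower, at 1.48 CPM, and TWIST2 had 30 counts.

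**Figure D2:**
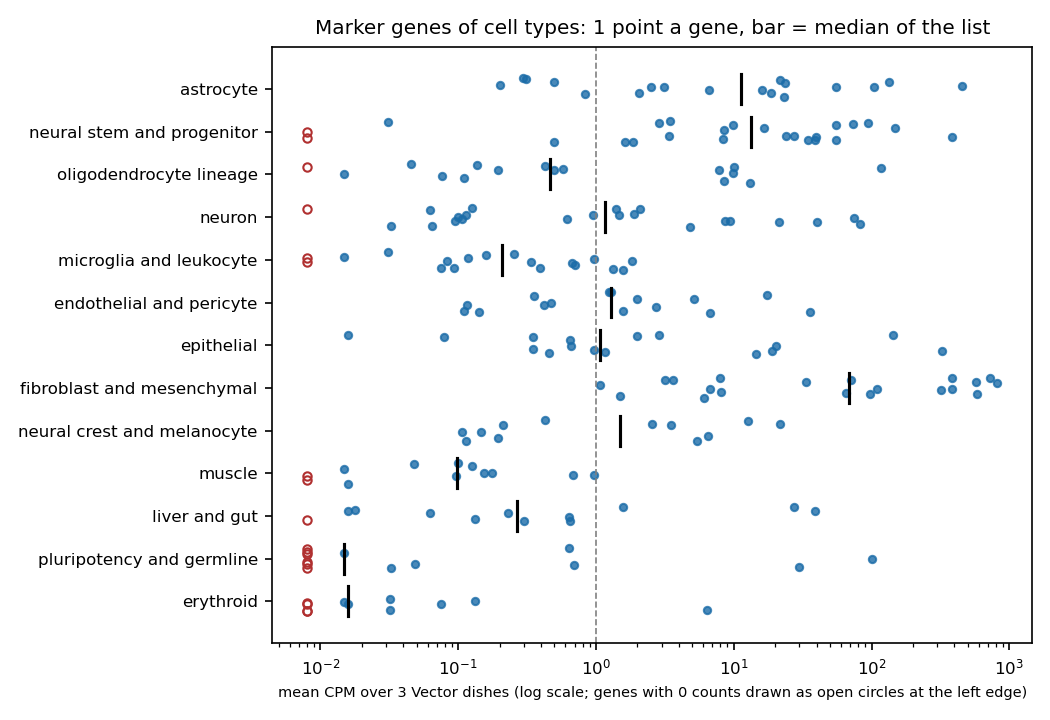
Mean CPM over the 3 Vector dishes (x axis, log scale) of marker genes of 13 cell types (rows), 1 point a gene, with open circles for genes with 0 counts, a black bar for the median of the list and a dashed line at 1 CPM. The fibroblast and mesenchymal list has the highest median of the 13 lists, 68.1 CPM, and the pluripotency and erythroid lists have medians near the value of 1 count.

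Some keratins were abundant while most other epithelial genes listed were low. Of 50 keratin genes 13 were expressed. KRT8, a keratin of simple epithelia, had 325, 335 and 321 CPM, or 47.5 CPM per kb, while KRT18, its usual partner, had 15.9, 13.9 and 13.5 CPM, or 4.48 CPM per kb. KRT14, a keratin of basal epidermis, had 144, 154 and 129 CPM, and KRT75 and KRT80 had 61.4 CPM and 59.4 CPM. KRT5, the usual partner of KRT14, had 11.9, 35.8 and 9.52 CPM and stood apart in dish 2. In the epithelial list 7 of 16 genes were expressed (43.8%), against 64.9% of all protein-coding genes. EPCAM, an epithelial surface protein, had 22 counts, CLDN3 had 1 and GRHL2, an epithelial transcription factor, had 5. The tight junction gene OCLN, occludin, was expressed, with 18.1, 21.4 and 21.5 CPM. E-cadherin, CDH1, had 1.57, 2.00 and 2.39 CPM, or 0.322 CPM per kb, against 14.4 for N-cadherin, CDH2.

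Genes of other developmental fields were also read. The homeobox gene CDX2, which specifies intestine, had 28.3, 25.9 and 27.9 CPM, and CPS1, the urea cycle enzyme of liver, had 38.6, 36.7 and 41.0 CPM. They were 2 of the 3 expressed genes of a 12-gene liver and gut list in which ALB had 4 counts and TTR had 0. PRAME, a cancer-testis antigen, had 31.7, 27.6 and 29.5 CPM. It and LIN28B were the 2 expressed members of 13 pluripotency and germline genes, of which NANOG, LIN28A, ZFP42, DPPA4, TDGF1 and DAZL had 0 counts.

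HOX genes, which give cells their position along the body axis and are mostly off in the forebrain, were expressed from all 4 clusters. These were 9 of 11 HOXA, 9 of 10 HOXB, 7 of 9 HOXC and 6 of 9 HOXD genes. The shares were 81.8, 90, 77.8 and 66.7% in that order, against 64.9% of all protein-coding genes. HOXB9 had 103, 105 and 118 CPM and HOXD13, a gene of the distal limb and hindgut, had 58.7, 48.3 and 56.3 CPM. Per kb these genes stood at 42.1 and 24.3, and HOXA5 at 23.2. HOXB1, the hindbrain gene at the other end of its cluster, had 0 counts. In a list of 40 forebrain homeobox and other patterning factors 33 were expressed (82.5%). EN2, a gene of the midbrain and hindbrain, had 62.7, 54.2 and 64.5 CPM. The median ratio of highest to lowest dish was 1.10, 1.16, 1.08 and 1.23 in the HOXA, HOXB, HOXC and HOXD clusters, on both sides of the 1.14 over all expressed genes.

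Of 30 glioblastoma driver and suppressor genes 27 were expressed (90%), against 64.9% of all protein-coding genes. EGFR had 84.8, 75.2 and 80.9 CPM and PDGFRA had 13.2, 7.16 and 9.31 CPM. CDK4, the kinase that CDKN2A's INK4A product inhibits, had 233, 239 and 224 CPM. Per kb it stood at 73.3, against 53.8 for CDKN2A and 7.19 for CDK6. The CDKN2A counts are of the whole gene and do not separate INK4A from ARF. MDM2, a ubiquitin ligase, had 126, 139 and 154 CPM, with dish 3 the highest and dish 1 the lowest. RB1, the retinoblastoma protein gene, had 59.4, 61.8 and 65.4 CPM and NF1, a negative regulator of RAS, had 83.7, 79.9 and 94.8 CPM. The telomerase gene TERT had 18, 11 and 11 counts in the dishes and was below 1 CPM, as were MGMT and MYCN (16 counts over the dishes). A gene level does not show whether a suppressor is mutated.

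On the 9p arm around CDKN2A, 8 of 14 listed genes were expressed (57.1%), against 64.9% of all protein-coding genes. KLHL9, a ubiquitin ligase adaptor, had 62.3, 66.6 and 64.3 CPM, FOCAD had 32.9, 36.7 and 35.7 CPM and MLLT3 had 28.2, 24.8 and 30.2 CPM. The interferon genes IFNB1, IFNW1, IFNA1 and IFNA2 had 0 counts and IFNE had 2. All 17 type I interferon genes of the genome had at most 3 counts each, 14 of them 0. Of 19263 protein-coding genes, 10.6% had 0 counts.

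Receptors let a cell read its surroundings, and 225 of 336 listed surface receptor genes were expressed, 64.9% being the share over all protein-coding genes. Among 58 receptor tyrosine kinases 49 were expressed. Per kb the highest was EPHA2, an ephrin receptor, at 33.5 ± 1.32 CPM per kb, followed by AXL, a receptor of the ligand GAS6, at 22.1 ± 0.848 CPM per kb. EPHB4, a further ephrin receptor (18.6), and PTK7, a pseudokinase of Wnt signalling (18.1 ± 1.59 CPM per kb), came next. FGFR3, a fibroblast growth factor receptor, stood at 17.7 ± 1.13 CPM per kb. EPHB4 and FGFR3 lay within 1 SD of PTK7. That SD is between dishes and does not cover the choice of exon length, so the order of such genes is uncertain. MET, the hepatocyte growth factor receptor, followed at 15.0 ± 0.726 CPM per kb. EGFR stood at 6.41 and ERBB2 at 6.04 CPM per kb. The kinases not expressed were INSRR, FLT3, MUSK, TIE1, EPHA1, RET, ALK, LTK and MST1R. RET and MST1R were near the threshold, with 0.943, 0.907 and 1.33 CPM and 1.03, 1.29 and 0.904 CPM. FLT4, the lymphatic receptor of VEGFC, had 86.7, 81.7 and 81.0 CPM.

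Integrins, which tie the cell to matrix, were expressed in 19 of 26 cases (73.1%), against 64.9% of all protein-coding genes. ITGA3, a laminin-binding chain, had 732, 523 and 594 CPM, with dish 1 the highest and dish 2 the lowest. ITGB1, the beta chain it pairs with, had 342, 324 and 341 CPM. They stood at 62.9 and 55.9 CPM per kb, ITGA5, the fibronectin receptor chain, at 24.8, and ITGB4, the chain of hemidesmosomes, at 18.8. The leukocyte chains ITGAL and ITGAM had 16 and 7 counts.

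Among 27 death and tumour necrosis factor receptors 17 were expressed (63.0%), near the 64.9% of all protein-coding genes. TNFRSF12A, the receptor of TWEAK, had 289.7, 265 and 222 CPM and the highest level per kb of all receptors listed, 140.1 ± 18.5 CPM per kb. TNFRSF10B, the death receptor DR5 of TRAIL, had 138, 130.4 and 141 CPM, while the related TNFRSF10A had 29 counts. FAS had 12.3, 12.1 and 11.7 CPM. The lymphocyte receptors CD27, TNFRSF4, TNFRSF13B and TNFRSF17 had 1 count each. Of the ligands, CD70, which binds CD27, had 103, 94.3 and 84.3 CPM and TNF had 14 counts.

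Cytokine receptors were expressed in 25 of 38 cases (65.8%), near the 64.9% of all protein-coding genes. IL6ST, the signalling chain shared by the interleukin-6 family, had 97.6, 104 and 106 CPM, and its partners LIFR, IL6R and OSMR had 34.0 CPM, 30.9 CPM and 29.8 CPM. IL13RA1 and IL13RA2, receptors of interleukin-13, stood at 22.4 and 21.1 CPM per kb. IL13RA2, a target studied in glioma, had 34.3 ± 4.31 CPM. IFNAR1, IFNGR1 and IFNGR2, interferon receptor chains, had 78.6 CPM, 52.1 CPM and 39.9 CPM. The chains of lymphoid cells IL2RA and IL2RG had 2 and 5 counts. Of the family's ligands LIF had 37.1, 31.9 and 36.3 CPM and IL11 had 32.9, 27.4 and 27.8 CPM, whereas IL6 had 14 counts.

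Other classes differed in how many members were read, where 64.9% of all protein-coding genes were expressed. All 9 Notch receptors and ligands were expressed, led per kb by NOTCH2 (9.49) and JAG1 (9.05), with NOTCH2 at 163, 144 and 172 CPM. Of 14 TGF-beta family receptors 13 were expressed, led per kb by ACVR1B (9.28) and TGFBR2 (9.10). Axon guidance receptors were expressed in 18 of 21 cases, with PLXNB2, a semaphorin receptor, at 299, 240.2 and 297 CPM. Of 58 other G protein-coupled receptors 47 were expressed. SMO, the Hedgehog signal transducer, was the highest of them per kb at 20.8, and the thrombin receptor F2R stood at 14.0. Of 43 neurotransmitter receptor channels 18 were expressed, with CHRNA5, a nicotinic subunit, at 20.3, 16.4 and 18.0 CPM and GABRE, a GABA receptor subunit, at 10.6, 11.6 and 12.4 CPM. CHRNA5 was the highest of the 43 per kb, at 5.03.

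Receptors of innate immunity and of chemokines had the lowest shares expressed, against 64.9% of all protein-coding genes. Of 22 chemokine receptors 3 were expressed: ACKR3 (11.9, 10.2 and 16.4 CPM), CXCR4 (5.57, 3.67 and 5.59 CPM) and CCR10 (1.39, 1.57 and 1.06 CPM), and 15 of the 22 had at most 3 counts. Of 20 pattern-recognition receptors 7 were expressed. TLR4, which binds endotoxin, had 9.16, 8.54 and 7.61 CPM, and STING1, the adaptor of cytosolic DNA sensing, had 28.8, 24.1 and 25.5 CPM. CGAS, the sensor that activates STING1, had 6 counts, and TLR7 and TLR8 had 0.

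**Figure D3:**
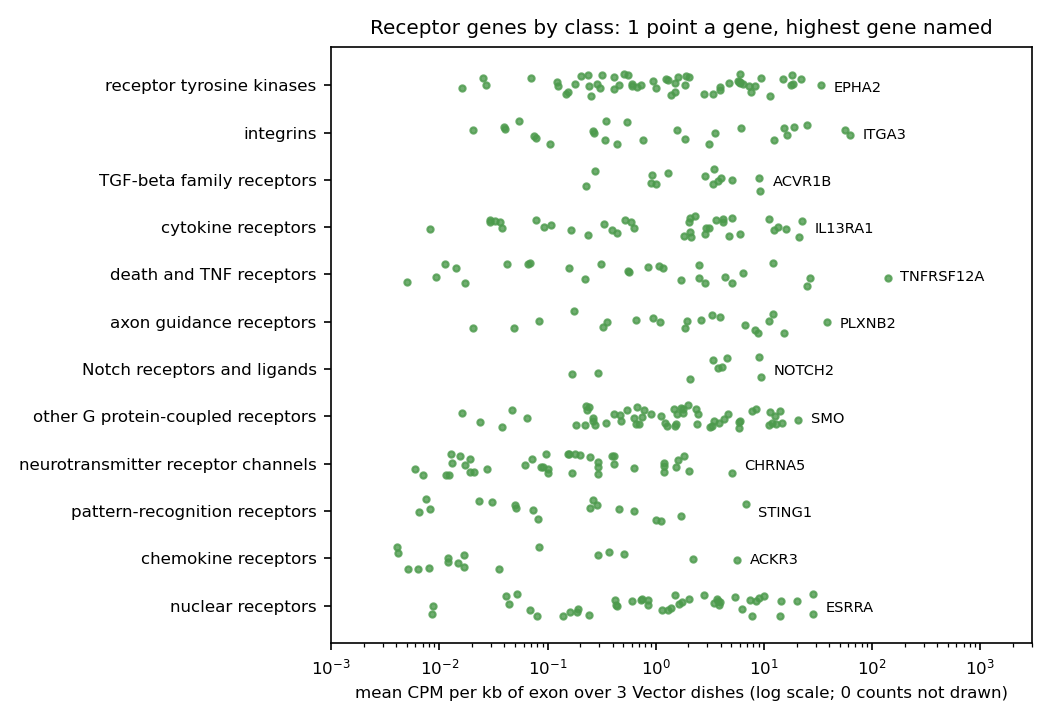
Mean CPM per kb of merged exon over the 3 Vector dishes (x axis, log scale) of receptor genes in 12 classes (rows), 1 point a gene, with the highest gene of each class named. TNFRSF12A lies farthest to the right, and the chemokine receptor row lies mostly below 1 CPM per kb.

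Nuclear receptors were expressed in 35 of 47 cases (74.5%), against 64.9% of all protein-coding genes. ESRRA, NR2F6 and RXRB were the highest per kb, at 28.6, 28.3 and 20.3. NR3C1, the glucocorticoid receptor, had 47.5, 51.5 and 49.8 CPM. ESR1, the oestrogen receptor, and PGR, the progesterone receptor, had 7 and 8 counts. Among 49 growth factor genes 43 were expressed. MDK, midkine, had 541, 535 and 529.9 CPM, or 244 CPM per kb, and its relative PTN had 73.1, 55.0 and 57.2 CPM. VEGFA, the inducer of vessels, had 175, 121 and 158 CPM and was lowest in dish 2. IGF1 and FGF7 had 6 and 7 counts.

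Of 13079 long noncoding genes 680 were expressed (5.20%). NORAD, a cytoplasmic RNA that binds Pumilio proteins, had 235, 234 and 262 CPM, SNHG29 had 237, 246 and 222 CPM and GAS5, a host of small nucleolar RNAs, had 153, 171 and 162 CPM. NEAT1, the RNA of nuclear paraspeckles, had 132, 141 and 156 CPM. It was lowest in dish 1 and highest in dish 3, an order shared by TUG1 (75.3, 86.1 and 95.6 CPM). MEG3, an imprinted RNA, had 102, 88.5 and 95.5 CPM. SNHG5, FGD5-AS1, OIP5-AS1, SNHG16 and AL035425.3 completed the 10 highest by CPM. The poly-T step selects polyadenylated RNA, so RNAs without such a tail are read in part only.

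Most genes varied little between the dishes. Over the 13843 expressed genes the median coefficient of variation was 7.07%, and edgeR put the common biological coefficient of variation, the part beyond counting noise, at 7.33%. Up to 1000 CPM the spread fell with the level, from a median of 12.9% at 1 to 10 CPM, where counting alone gives about 11.5%, to 5.01% at 100 to 1000 CPM, where it gives 1.72%. Over 1000 CPM the median was 5.24%. At least 2-fold between the highest and lowest dish differed 91 genes (0.657%), and at least 1.5-fold 856 (6.18%). The 2-fold count was 14 without dish 1, 28 without dish 2 and 61 without dish 3. Among the 9959 genes with a mean of 10 CPM or more, 16 (0.161%) differed at least 2-fold and 130 (1.31%) at least 1.5-fold. At this level the 2-fold count was 2 without dish 1, 0 without dish 2 and 16 without dish 3. CLINT1, an adaptor of vesicle transport, had the smallest ratio of these 9959, with 133, 133 and 132 CPM. DNAJC22, UNC119B, PSPC1 and STEAP3 followed, with ratios of at most 1.004.

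The genes that did vary mostly followed 1 pattern, high in dish 1 and low in dish 2. Of the 130 genes that differed at least 1.5-fold, 104 were highest in dish 1, 102 lowest in dish 2 and 98 both, whereas 2034 of all 9959 genes showed both (20.4%). Without dish 1 the number at least 1.5-fold apart was 29, without dish 2 it was 33 and without dish 3 it was 116. FN1, given above, differed 2.13-fold. IGFBP5 and IGFBP3, secreted proteins that bind insulin-like growth factors, had 307, 118 and 245 CPM and 349, 156 and 293 CPM. NDRG1, a hypoxia- and stress-induced gene, had 458, 223 and 388 CPM, and CA9, a carbonic anhydrase induced by hypoxia, had 87.8, 40.3 and 59.8 CPM. In these genes dish 3 lay between the other dishes. COL5A3 (18.6, 6.87 and 10.6 CPM), CADM3 (16.9, 5.97 and 9.26 CPM), FAT2 (33.9, 13.2 and 20.5 CPM), SYNPO (136, 62.0 and 92.7 CPM), HMCN1, FABP7, PLXNA4, IGFBP7 and TGFB3 showed the same order. KRT5 did not: it was highest in dish 2 and its ratio of 3.76 was the largest at this level.

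**Figure D4:**
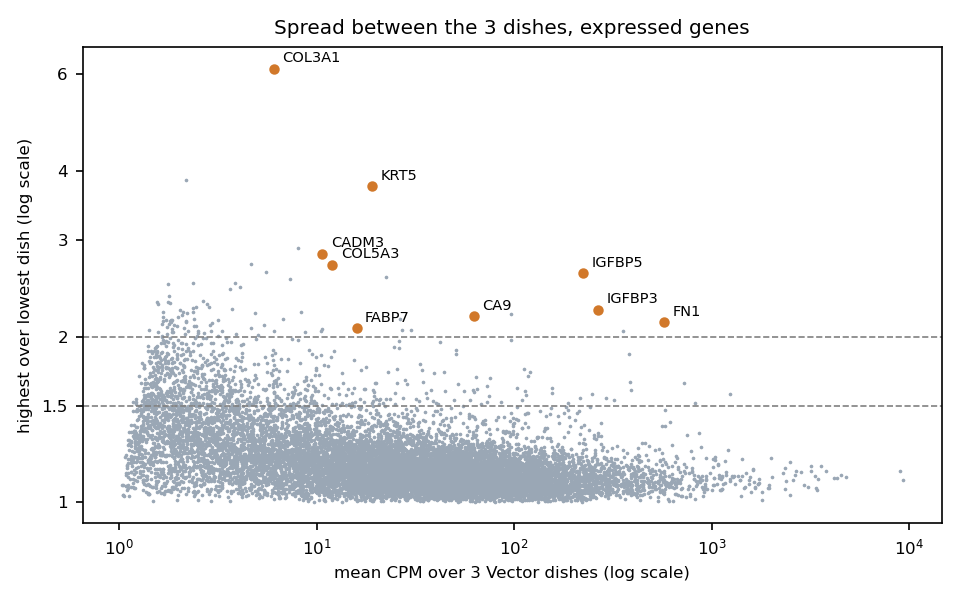
Ratio of the highest to the lowest Vector dish (y axis, log scale) against mean CPM (x axis, log scale), 1 point an expressed gene, with dashed lines at 1.5 and 2 and 9 genes named. Above 10 CPM few points rise above 1.5; KRT5 is the highest of them, and COL3A1, at a mean of 6.08 CPM, is the highest of all.

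This order was frequent in several lists, of matrix genes and of others. Of 32 expressed collagens 22 were highest in dish 1 and lowest in dish 2, where 20.7% of all expressed genes were, and in the fibroblast and mesenchymal list it was 15 of 19. The SOX family showed it in 10 of 14 genes, the mesenchymal glioma list in 12 of 20, the integrins in 11 of 19 and the axon guidance receptors in 10 of 18. At least 1.5-fold apart were 15 of the 32 collagens and 11 of the 19 mesenchymal genes, against 6.18% of all expressed genes. In the SOX family 2 of 14 were. COL3A1, a fibrillar collagen, had 12.9, 2.10 and 3.25 CPM, and COL5A1 had 498, 267 and 378 CPM. Cytosolic ribosomal protein genes did not share the order: 0 of 82 were highest in dish 1 and lowest in dish 2, and 1 differed at least 1.5-fold. Base composition moved with the same dishes. In the fifth of genes lowest in GC content the median log2 deviation from the gene's mean was -0.077 in dish 1 and 0.044 in dish 2, and in the fifth highest in GC content it was 0.075 and -0.064. Processed pseudogenes had medians of -0.058, 0.216 and -0.158 in dishes 1 to 3. The part of either in the pattern was not tested.

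Silent loci were the other end of the range. Of 19263 protein-coding genes 2047 had 0 counts in all 3 dishes (10.6%) and 4720 had counts without being expressed, and those 4720 genes together took 0.131% of protein-coding counts. Families of other tissues made up whole silent blocks. None of 355 olfactory receptor genes was expressed and 259 had 0 counts. Of 92 keratin-associated protein genes of hair, 1 was expressed and 63 had 0 counts, although KRT81, a hair keratin, was abundant. No beta-defensin (0 of 39), bitter taste receptor (0 of 24) or late cornified envelope gene (0 of 18) was expressed.

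Along the chromosomes, the longest run of neighbouring protein-coding genes with 0 counts held 22 genes on chromosome 4, from FAM90A26 through the USP17L deubiquitinase copies to DEFB131A. Runs of 12 lay on chromosome 14 (olfactory receptors OR11H2 to OR4K17), on chromosome 8 (beta-defensins DEFB4B to DEFB106A) and on the X chromosome (the CT47A cancer-testis copies). A run of 11 GAGE genes, also cancer-testis copies, lay on the X chromosome. The USP17L, CT47A, GAGE and part of the defensin genes are near-identical copies, to which reads may not be assigned, so their 0 counts are uncertain. When genes with counts under the threshold are let in, the longest unexpressed run held 60 genes on chromosome 11, from OR4B1 to APLNR. A run of 48 on chromosome 17 held keratins and keratin-associated proteins from KRT12 to KRT36, and a run of 46 on chromosome 1 held the epidermal genes from FLG2 to S100A7. The globin genes HBB, HBD, HBG1 and HBG2 lay in a run of 36 on chromosome 11 that had 41 counts in all.

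Overlap between genes touches these calls. Of 380 protein-coding genes with at most 10% of exon bases free of other genes' exons, 314 had 0 counts (82.6%), against 1297 of 10686 with none shared (12.1%). Reads in shared exons may not be counted for either gene, and the setting the authors used for them was not stated. With over 90% of exon bases free, 1437 of the 2047 genes with 0 counts remained. Some of these are widely expressed genes, such as the histone methyltransferase KMT2B and the inositol transporter SLC5A3, named after their values were seen, and their 0 counts are uncertain too.

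Silent and expressed genes differed in their promoters. Among 14959 protein-coding genes with a RefSeq promoter, the median CpG number in the 250 bases before the start was 3 for genes with 0 counts, 6 for genes with counts but not expressed, 18 for expressed genes under 10 CPM, 22 at 10 to 100 CPM and 23 at 100 CPM or more. At least 20 CpG were found in 9.96, 19.7, 46.7, 59.2 and 63.9% of them in that order, and in 44.5% of all. The motif TATAAA, on either strand (TTTATA), was found anywhere in the window in 22.0, 15.9, 6.21, 4.30 and 5.40%, and in 8.98% of all. A match is a run of letters and not a shown binding site. CpG number is tied to base composition, which rose over the same classes from a median GC content of 49.6% to 65.6%, and no test was made. MGMT and NDN had more CpG than the median of abundant genes, with 1 and 0 counts. Of the genes with 0 counts and over 90% of exon bases free, 77 had at least 20 CpG, among them SOX1 and the glucagon and galanin receptor genes GCGR and GALR1.

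**Figure D5:**
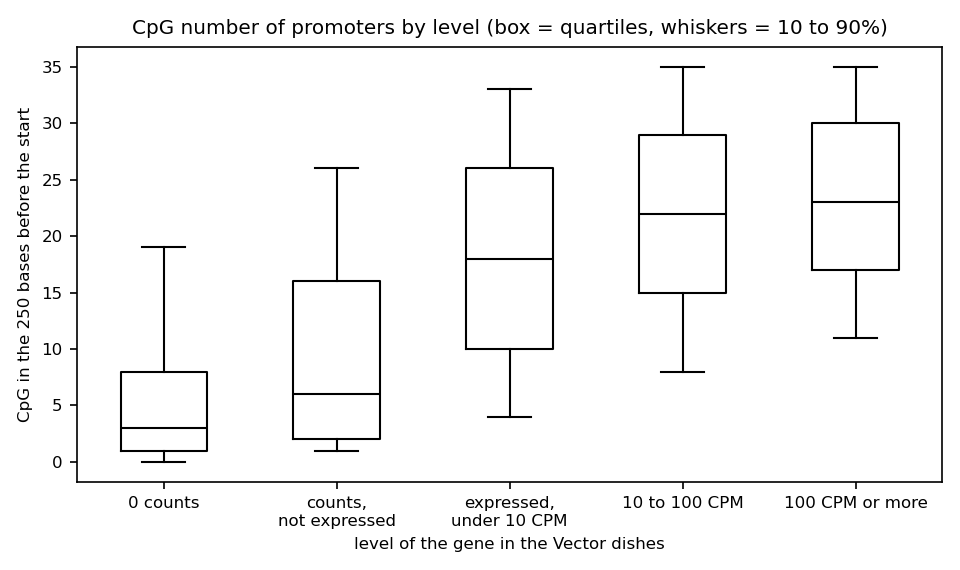
Number of CpG in the 250 bases before the start of 14959 protein-coding genes (y axis) in 5 classes of level in the Vector dishes (x axis); boxes are quartiles with the median, and whiskers span 10 to 90% of genes. The medians are 3, 6, 18, 22 and 23 from silent to abundant genes, and the boxes of neighbouring classes overlap.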

How the data were processed

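From each dish 3 µg of total RNA went through poly-T selection and an unstranded NEBNext Ultra preparation, per the labels' protocols. The submitters' processing notes name HTSeq 0.6.0, STAR 2.5.1b and CASAVA 1.8, without roles, and the build hg19. The annotation, strand setting and overlap setting are not given in those notes. Raw counts for each Ensembl identifier, as deposited by the authors, were used, and their normalized table was not. The Vector columns were divided by their totals to give CPM. Names came from a table of gene names, and types, exon lengths, GC content and overlaps from GENCODE 29, which is on another build, so it gives no coordinates here (52338 of 57773 IDs matched). Depth was 18797948 to 22270509 counts per dish. Intervals and floors cover counting error only.

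Groups came from sample titles. No groups were compared. edgeR 4.0.16 in R 4.3.3 gave the biological coefficient of variation (TMM, intercept only) and was tested on simulated data. Python 3.11.15, pandas 2.3.3 and matplotlib 3.10.9 were used. Named genes are the 20 highest by CPM and per kb, list members, the 15 largest and 5 smallest dish ratios at 10 CPM or more, the 10 highest long noncoding RNAs and the 5 longest silent runs. Unexpressed runs with counts, promoter genes, KMT2B, SLC5A3, GCGR, GALR1, the 1.5-fold rule, the CpG minimum, the motif search, the overlap bins, the GC classes, the dish-order counts and 3 exclusions from gene families whose symbols matched by name only were chosen after values were seen. The gene lists were chosen with earlier results of these data known. Not every list member was analysed here (NEFL, PECAM1 and CCL5, for example). X-inactivation and Y-linked genes and some list members are not reported here.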

Additional observations from a re-analysis of the deposited data

How the results depend on the processing

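No paired analysis was possible because 1 group was described and no test was made. The number of expressed genes was 13817 to 13866 under TMM, relative log expression and non-mitochondrial scaling, 15016 at 0.5 CPM, 11122 at 5 CPM, 14251 by the mean alone, and 13961 to 13999 with any 1 dish left out. The share of the 100 most abundant genes was 17.8% without mitochondrial genes and 18.9 to 19.2% with a dish left out. The median CPM of expressed genes moved from 27.7 to 28.4 without mitochondrial genes, to 39.995 at the 5 CPM threshold, and to 27.1 to 27.3 with a dish left out.

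The number of genes that differed at least 2-fold depended on the level and the dish. It was 16 at a mean of 10 CPM or more and 3843 with any count in each dish, and 14, 28 and 61 without Vector dishes 1, 2 and 3. At 10 CPM or more it was 2, 0 and 16 without them, and for 1.5-fold 29, 33 and 116, alternatives chosen after seeing the data. The biological coefficient of variation ran from 5.90% without dish 1 to 9.01% without dish 3. Genes counted as silent rose from 2047 to 3619 at up to 3 counts and 4723 at up to 10, and to 2273 to 2683 with a dish left out. At 5 CPM the expressed number moved by over 1.5 times in 24 of 88 lists, and at 0.5 CPM in 5. At 15 CpG or more in place of 20, also chosen after seeing the data, 15.6% of silent and 81.9% of abundant genes passed. Depth limits genes near 1 CPM, where counting noise alone gives a large part of the spread.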

Other observations

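Some families with several members were read mainly through 1 or 2 of them, and others through more. The cytoplasmic actins ACTB and ACTG1 gave 50.9 and 49.1% of the actins, and the 4 muscle actins gave the rest. Of beta-tubulin, TUBB gave 52.2% and TUBB4B 31.6%. ALDOA gave 99.8% of the aldolases and PKM all of pyruvate kinase, with 0 counts for PKLR. HK1 gave 73.4% and HK2 25.5% of hexokinase, and LDHB 76.0% of lactate dehydrogenase. The lamins LMNA, LMNB1 and LMNB2 gave 22.0, 31.7 and 46.2%, and the phosphofructokinases PFKP, PFKL and PFKM 57.1, 25.6 and 17.3%. The alpha-tubulins TUBA1A, TUBA1B and TUBA1C gave 26.6, 34.1 and 36.5%. Of the cadherins CDH2 gave 40.2%, CDH4 32.8%, CDH11 14.5% and CDH13 9.40%. These shares are of CPM per kb summed over each family. They depend on the exon length used and on how reads of similar or overlapping genes were assigned. With the longest transcript LDHB stood at 1056 CPM per kb in place of 545. Of the exon bases of LDHB and ALDOA, 66.6 and 46.5% are free of other genes' exons.

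Imprinted genes, of which normally 1 parental copy is read, ranged over the whole scale. Of 25 listed 15 were expressed (60%), near the 64.9% of all protein-coding genes. GNAS had 1040.4, 919 and 976 CPM and PEG10, a retrotransposon-derived gene, had 215, 185 and 206 CPM. On the chromosome 15 cluster, NDN had 0 counts, MAGEL2 5 and SNRPN 14. MEG3 had 102, 88.5 and 95.5 CPM and its neighbour DLK1 had 0 counts. PEG3 had 9 counts and ZIM2 had 0. Of NDN's exon bases 100% are free of other genes' exons. Reads in shared exons may not be counted, so low counts of the other genes are uncertain where exons are shared.

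Cancer-testis genes, which are normally limited to germ cells, were read from some families. MAGEA6, MAGEA12 and MAGEA3 had 43.6, 41.1 and 38.4 CPM, 38.0, 34.6 and 28.1 CPM and 20.5, 20.4 and 16.8 CPM, and each was lowest in dish 3. These 3 genes are close copies, so the split between them is uncertain. Of 27 GAGE, PAGE, XAGE and SSX genes 0 were expressed, and of 9 SPANX genes 0, against 64.9% of all protein-coding genes. Clustered protocadherins, cell surface proteins of neurons, were low, with 0 of 15 alpha, 5 of 15 beta and 4 of 21 gamma genes expressed. PCDHGC3 was at 67.0, 35.5 and 49.4 CPM, and 59.8% of its exon bases are free of other genes' exons. Reads in exons shared within a cluster may not be counted, so the low protocadherin values are uncertain.

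Some single values stand out against related genes. HSPA1B had 592, 583 and 651 CPM and its near-identical copy HSPA1A had 53 counts over the dishes, so the split between them is uncertain. H2BC12 had 65.5, 81.5 and 78.7 CPM, or 197 CPM per kb, whereas 8 of 29 listed replication-dependent histone genes, whose mRNA normally lacks a poly-A tail, were expressed. MIF, a cytokine made by many cell types, had 29, 19 and 12 counts, with 38.1% of its exon bases free of other genes' exons. CYP51A1, the sterol demethylase, had 3.14, 2.91 and 3.72 CPM, with 16.8% of its exon bases free.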
